A study of Homo sapiens with 2 samples.

Results

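The BCL2 family sets whether a cell keeps its mitochondria intact or commits to apoptosis, and 10 of its genes were followed here in 2 undifferentiated human embryonic stem cell lines. They were chosen by name: the anti-apoptotic genes BCL2, BCL2L1 and MCL1, the effector genes BAX and BAK1, and the BH3-only genes BBC3, PMAIP1, BCL2L11, BID and BAD. All 10 were found, each as a single row, among the 25436 gene symbols used from the deposited table. Both lines, HuES53 and HuES64, were diploid, below passage 20 and of in vitro fertilization origin, and they served as controls in a study of haploid embryonic stem cells. Each line gave 1 library of polyadenylated RNA, so there is no replicate error and no p-value, and what differs between the libraries may not hold for the lines. The values are FPKM, fragments scaled to transcript length and to library size, which allow levels of different genes to be compared per length.

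In the mitochondrial pathway, BAX and BAK1 form pores in the outer mitochondrial membrane, which release cytochrome c and start the caspase cascade. The anti-apoptotic proteins bind and restrain them, and BH3-only proteins, made or activated under stress, either occupy the anti-apoptotic proteins or activate the effectors directly. Human pluripotent cells are known to enter apoptosis readily after DNA damage or dissociation, and much of the family's control lies in protein stability, location and cleavage, which RNA levels do not show.

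The labelled cell type was checked against its markers. All 10 pluripotency markers were present, from 42.1 to 1053 FPKM in HuES53 and from 24.9 to 1381 in HuES64. Of 8 blood and lymphoid markers, 7 were below 1 FPKM in both lines, and CD3E was listed at 0 in both. Of 8 neural markers, 6 were below 1 FPKM in both lines, while TUBB3 stood at 264 and 285 FPKM. NEUROG2, NEUROD1, HBB and the fibroblast marker FAP were listed at 0 in HuES53, and PTPRC and GATA1 in HuES64. Fibroblast markers summed to 213 FPKM in HuES53 and 230 in HuES64, and 3 of those 8 were below 1 FPKM in both lines. Most of these sums was COL1A1 (138 and 168 FPKM) and COL1A2 (66.5 and 46.7 FPKM). Endoderm markers differed more: 7 of 8 were higher in HuES53, and their summed level was 666 FPKM there against 169 in HuES64, most of it CER1 (543 and 104 FPKM). Of 8 mesoderm markers, 6 averaged at least 1 FPKM and 4 of these were higher in HuES53, with sums of 57.1 and 36.2 FPKM. The part of such cells in the differences below was not tested, and with bulk RNA, fewer cells of a type and less RNA per cell cannot be told apart.

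The levels of the members spanned a wide range that was ordered almost alike in both lines. BAX was the highest member and BCL2 the lowest, with PMAIP1, MCL1, BCL2L1, BAK1, BBC3 and BAD following BAX in that order in each line. Only BCL2L11 and BID exchanged places. Without replicates the spread of a level is unknown. BBC3 and BAD, neighbours in that order, were closer to each other within each line than either was to its own level in the other line.

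**Figure D1:**
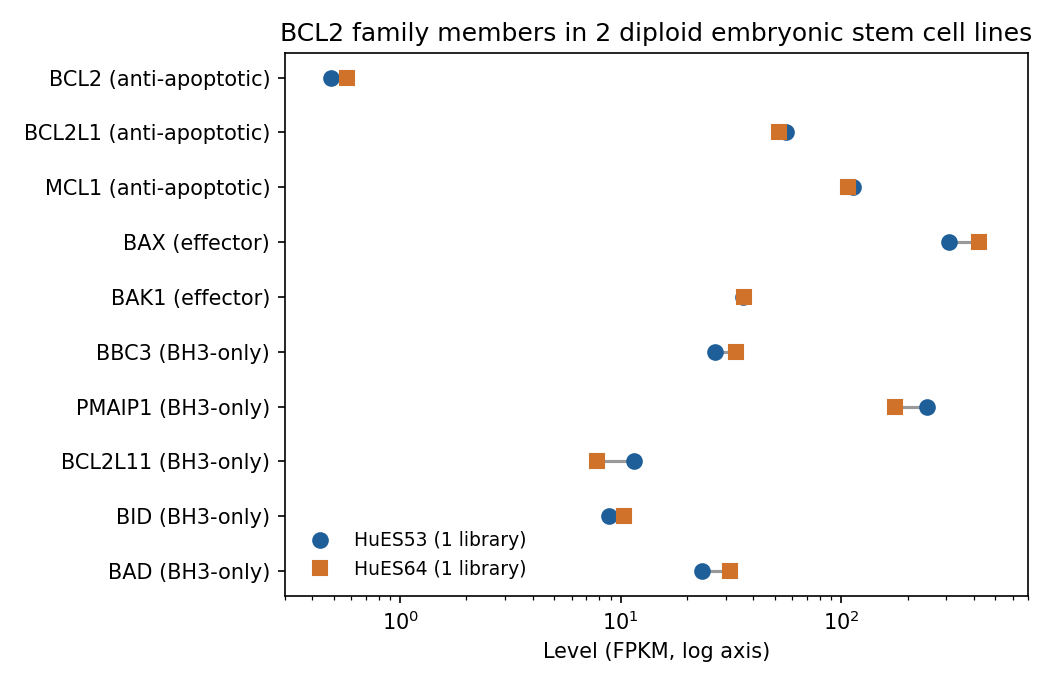
Level of each member in FPKM (horizontal log axis) in HuES53 (circles) and HuES64 (squares), 1 library each, with a grey line joining the 2 values of a gene. BAX lies farthest right and BCL2, below 1 FPKM in both lines, farthest left, and the gap between the lines is small beside the range between genes.

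Among the anti-apoptotic members, MCL1 and BCL2L1 were well expressed and BCL2 was barely detected. MCL1 encodes a short-lived protein that restrains BAK1 and is lost quickly when translation stops. It had 114 FPKM in HuES53 and 107 in HuES64, above 93.6% and 92.4% of the 13790 genes that averaged at least 1 FPKM over the lines. Those 13790 genes are the ones used for every count below. BCL2L1, which encodes BCL-XL, stood at 56.5 and 52.2 FPKM. BCL2, the founding member of the family, had 0.485 FPKM in HuES53 and 0.576 in HuES64. It was the single member under the 1 FPKM mean. The lines were close for these genes: BCL2L1 and MCL1 were 1.08-fold and 1.06-fold higher in HuES53. MCL1 was lower there once the GC and length trend described below was removed (-0.19). MCL1 was about 2.01 times BCL2L1 in HuES53 and 2.06 times in HuES64. By the deposited values MCL1 was 234 times BCL2 in HuES53 and 186 times in HuES64, and both ratios rest on a BCL2 value so low that its precision is not known.

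The effectors differed strongly in level from each other. BAX, whose protein is mostly cytosolic in healthy cells and moves to mitochondria on activation, had 309 FPKM in HuES53 and 422 in HuES64. It ranked 298 of 13790 genes in HuES53 and 249 in HuES64. BAK1, whose protein sits in the outer mitochondrial membrane, stood at 36.0 and 36.1 FPKM. BAX RNA was thus 8.58 times BAK1 RNA in HuES53 and 11.7 times in HuES64. BAX was 1.36-fold higher in HuES64, while BAK1 was level, with a difference of -0.00 on the log2 scale that was 0.24 with TPM scaling. The median of all tested genes under that scaling was 0.25. RefSeq names 2 pseudogenes after BAK1, so part of its value may belong to copies.

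The BH3-only members ranged from PMAIP1, the second-highest of all members, to BID and BCL2L11, the lowest of the group. PMAIP1 encodes NOXA, which binds chiefly MCL1, and had 246 FPKM in HuES53 and 175 in HuES64. Its RNA was 2.17 times that of MCL1 in HuES53 and 1.63 times in HuES64. BBC3 encodes PUMA, which binds all main anti-apoptotic proteins, and stood at 26.7 and 33.4 FPKM. BAD, whose protein is kept inactive by growth factor signalling and 14-3-3 proteins, stood at 23.4 and 31.2 FPKM. BCL2L11 encodes BIM, a target of FOXO factors, and stood at 11.5 and 7.82 FPKM. BID, which caspase-8 cleaves to link death receptors to mitochondria, stood at 8.89 and 10.4 FPKM. PMAIP1 and BCL2L11 were therefore the BH3-only genes that were higher in HuES53, and BBC3, BAD and BID were higher in HuES64. BID was not so with TPM scaling (0.03, or -0.23 relative to the median of all genes). With the GC and length trend removed, BBC3 (0.04) and BAD (0.00, or 0.22 by the longest transcript) were not higher in HuES64. BCL2L11 was 1.30 times BID in HuES53, while BID was 1.32 times BCL2L11 in HuES64.

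No member differed by 1.5-fold between the lines. A difference here is the log2(FPKM + 1) value of HuES53 less that of HuES64, and the added 1 makes folds of low genes smaller than the plain ratio. None of the 9 members averaging at least 1 FPKM reached 1.5-fold on this scale, where 17.1% of all tested genes did, and none reached 2-fold, where 3.86% did. With TPM scaling, which divides by the FPKM sum of each library and raised the median of all genes from 0.03 to 0.25, PMAIP1 (0.73) and BCL2L11 (0.75) passed 1.5-fold, as did 26.9% of all tested genes. With the deposited values BCL2L11 had the largest difference, 0.51 (1.42-fold, a plain ratio of 1.47), followed by PMAIP1 with 0.49 (1.40-fold). The largest differences toward HuES64 were those of BAX (-0.45), BAD (-0.40) and BBC3 (-0.32). A difference at least as large as that of BCL2L11 was seen in 23.9% of all tested genes, and one as large as that of BAX in 29.6%. The median size of the difference, regardless of sign, was 0.32 over the 9 members and 0.29 over all tested genes. The median signed difference was -0.00 for the members, with 4 higher in HuES53 and 5 in HuES64, and 0.03 for all genes, with 7237 and 6553.

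**Figure D2:**
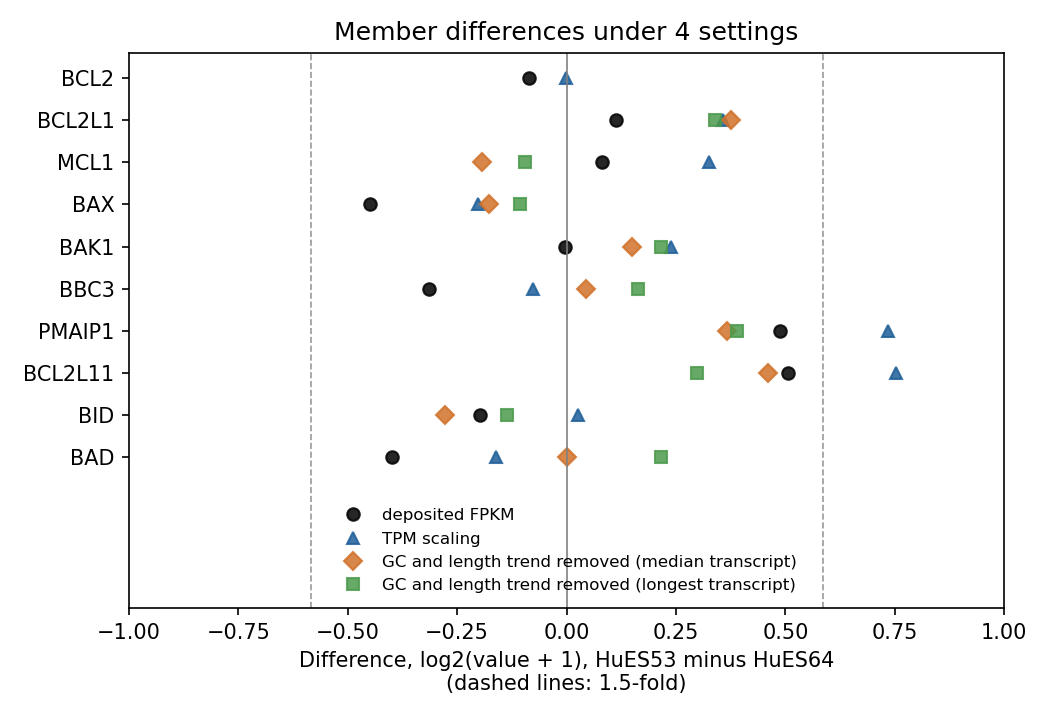
Difference of each member, HuES53 minus HuES64 on the log2(value + 1) scale, with the deposited FPKM (circles), with TPM scaling (triangles) and with the trend by GC content and transcript length removed, by the median (diamonds) or longest (squares) transcript of a gene. Dashed lines mark 1.5-fold. BAX stays left of 0 and PMAIP1, BCL2L11 and BCL2L1 stay right of 0 in all 4, while MCL1, BBC3, BAD and BID have values on both sides, and BAK1 moves from about 0 to the right. BCL2 has values for deposited FPKM and TPM only, since it is under the filter.

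The differences varied with the base composition of the genes. Across the 11916 tested genes with a GENCODE transcript (86.4% of those tested), the median difference was 0.32 among the GC-poorest 10% (median GC content 38.7%) and -0.30 among the GC-richest 10% (64.5%). PMAIP1 and BCL2L11, the members highest in HuES53 relative to HuES64, had transcripts of 41.4% and 45.7% GC. BAX, BBC3 and BAD, the members lowest in that respect, had 60.6%, 64.4% and 65.1%. Spearman's rho between difference and GC content was -0.80 over the 9 members and -0.50 over all matched genes, as a description of genes measured in the same 2 libraries. Once that trend and the one by transcript length were removed, BAD stood at 0.00 and BBC3 at 0.04, while BAX kept -0.18, PMAIP1 0.37 and BCL2L11 0.46. BCL2L1, near level before, stood at 0.38, and MCL1 at -0.19. By the longest transcript of each gene BAX stood at -0.11, PMAIP1 at 0.39, BCL2L1 at 0.34 and BCL2L11 at 0.30, and BAD was then higher in HuES53 (0.22). The sizes of the members' differences had a median of 0.19 after removal by the median transcript, and 5 of 9 members kept their sign. BAX, PMAIP1, BCL2L11 and BCL2L1 had the same direction under every scaling, filter, pseudocount and trend removal that was run.

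**Figure D3:**
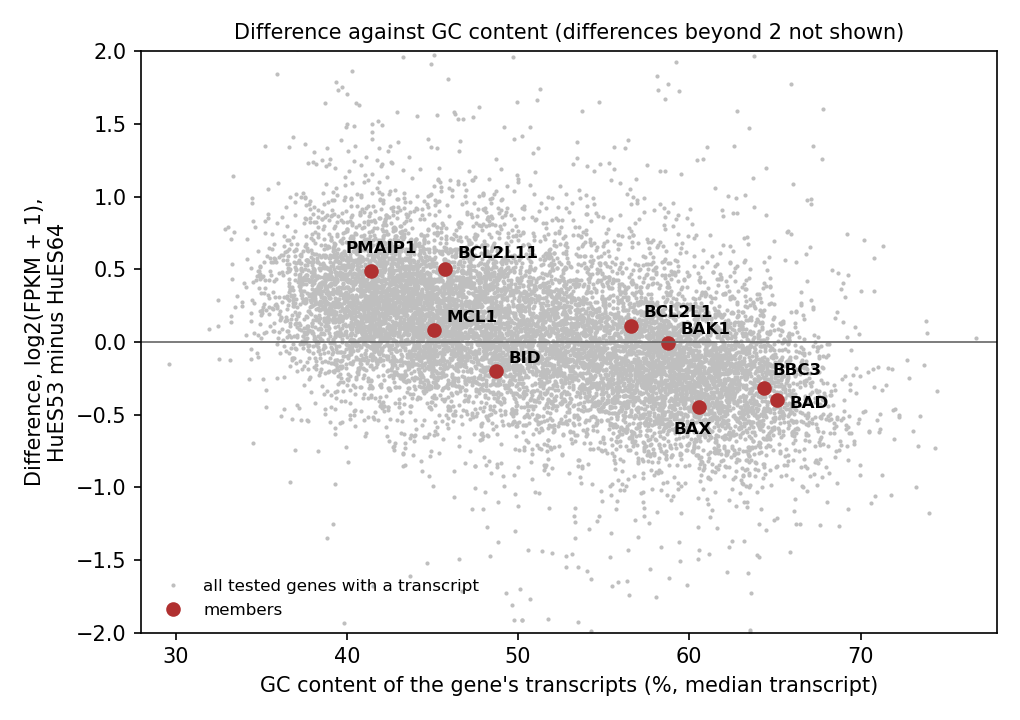
Difference of each gene (vertical, HuES53 minus HuES64 in log2(FPKM + 1)) against the GC content of its median transcript (horizontal, %), for the 11916 matched genes (grey) and the 9 members averaging at least 1 FPKM (red). The grey cloud slopes down to the right, and PMAIP1 and BCL2L11 lie at its upper left and BAX, BBC3 and BAD at its lower right.

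Summed by role, the members gave 832 FPKM in HuES53 and 877 in HuES64. Effectors made up 41.5% of this sum in HuES53 and 52.3% in HuES64, nearly all of it BAX. The log2 ratio of the effector sums, HuES53 over HuES64, was -0.41. Without the GC and length trend it was -0.15, or -0.077 by longest transcripts. BH3-only genes made up 38.1% and 29.5%, most of it PMAIP1, with a log2 ratio of 0.29 that was 0.27 with the trend removed. Anti-apoptotic genes made up 20.5% and 18.3%. The sum of the effectors was 2.02 times that of the anti-apoptotic genes in HuES53 and 2.86 times in HuES64. The sum of the BH3-only genes was 1.86 and 1.61 times that of the anti-apoptotic genes. Such ratios within a library do not depend on how libraries are scaled, but each rests on 1 or 2 genes and on RNA alone. Of the genes that dominate these sums, PMAIP1 was 0.797 of BAX in HuES53 and 0.415 of BAX in HuES64, a 1.92-fold change of the ratio, or 1.46-fold without the GC and length trend.

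**Figure D4:**
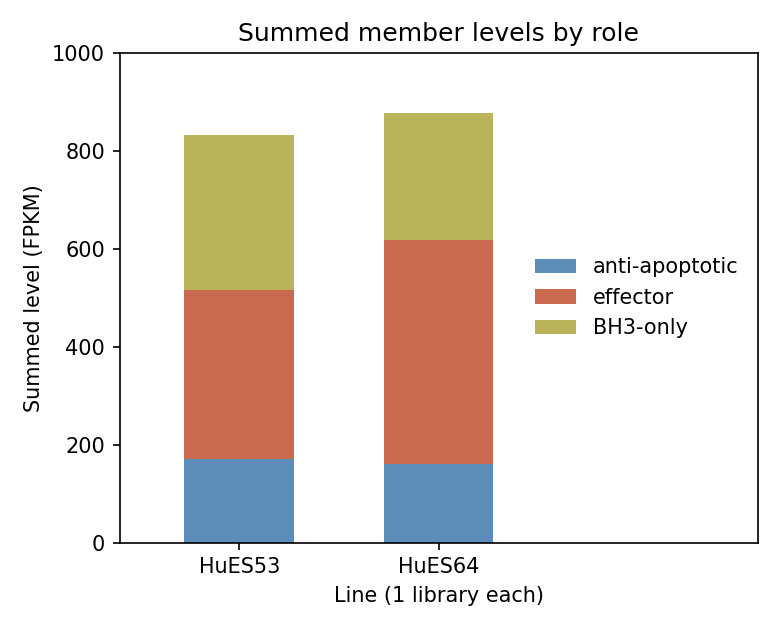
Summed FPKM (vertical axis, from 0) of the 3 anti-apoptotic, 2 effector and 5 BH3-only members in HuES53 and HuES64, 1 library each. The totals are 832 and 877 FPKM, and the effector segment is larger in HuES64 (458 against 345 FPKM) while the BH3-only segment is larger in HuES53 (317 against 258 FPKM).

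The positions of the members are given as in the deposited table, whose genome build is not given in the sources used here, counting from 1. BAX lies at chr19:49458117-49465055, PMAIP1 at chr18:57567192-57571538, MCL1 at chr1:150547027-150552214, BCL2L1 at chr20:30252261-30310656 and BCL2L11 at chr2:111878491-111926022. BAK1 lies at chr6:33540323-33548070, BBC3 at chr19:47724079-47736023, BAD at chr11:64037300-64052176, BID at chr22:18216906-18257258 and BCL2 at chr18:60790579-60986613. The loci of 7 members overlapped no other row of the table. BBC3 and BID overlap microRNA genes. BAD overlaps GPR137 (15.2 and 17.0 FPKM), so fragments in the shared stretch cannot be assigned with certainty.

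BCL2L1 lies in 20q11.21, which pluripotent stem cells often gain in culture. Copy number was not measured here, and its part in these levels was not tested. The neighbours of BCL2L1 did not share a direction. Of 28 other genes within 500 kb of its locus, 12 averaged at least 1 FPKM, 4 of them higher in HuES53 and 8 in HuES64, with a median difference of -0.28. That median was 0.00 with no filter on low values and -0.05 among genes averaging at least 5 FPKM. TPX2, a mitotic spindle factor gene 16.2 kb away, had 78.3 FPKM in HuES53 and 53.6 in HuES64. On the other side COX4I2, the nearest gene, was listed at 0 in HuES64, against 0.224 FPKM in HuES53. ID1, a target of BMP signalling, stood at 108 and 246 FPKM, and HM13, a signal peptide peptidase gene, at 65.3 and 75.9. Besides ID1, 2 of the 12 were at least 1.5-fold different: PDRG1 (21.6 and 33.2 FPKM) and PSIMCT-1 (3.71 and 1.86 FPKM), which lies inside HM13. Higher in HuES53 at this size was 1 of 12, where 9.22% of all tested genes were, and higher in HuES64 were 2 of 12, where 7.84% were.

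The other genes of the family were mostly lower than the leading members. Of 13 listed, 9 averaged at least 1 FPKM, with a median difference of -0.03, 4 higher in HuES53 and 5 in HuES64, against 0.03 over all genes. That median turned to 0.20 with TPM scaling, 0.07 with a mean of at least 5 FPKM and 0.19 without overlapping loci. Relative to the median of all genes it was -0.05 with TPM scaling. The anti-apoptotic relatives were low. BCL2L2 stood at 8.30 and 8.49 FPKM, but its locus lies within the read-through gene BCL2L2-PABPN1 (54.7 and 65.5 FPKM, named after its values were seen). BCL2L10, an oocyte-expressed relative, stood at 0.941 and 0.288 FPKM, and BCL2A1, an NF-kB target of blood cells, was listed at 0 in HuES53 and stood at 0.383 in HuES64.

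At least 1.5-fold higher in HuES64 were 3 of the 9, where 7.84% of all tested genes were, and none of the 9 was so in HuES53. BOK, a relative of BAX and BAK1, had 15.9 FPKM in HuES53 and 25.3 in HuES64 and overlaps BOK-AS1. BIK, a BH3-only gene, stood at 7.46 and 11.7 FPKM, and BCL2L12, which overlaps IRF3, at 48.5 and 80.0. Without the GC and length trend these differences were -0.30 for BOK, -0.33 for BIK and -0.48 for BCL2L12, each under 1.5-fold. By the longest transcript they were -0.27 for BOK, -0.06 for BIK and -0.34 for BCL2L12. BMF, a BH3-only gene, stood at 7.94 and 5.68 FPKM, and HRK, a BH3-only gene of neurons, at 1.09 and 1.33. The mitophagy receptor genes BNIP3 (54.7 and 46.4 FPKM) and BNIP3L (21.3 and 18.1 FPKM) and the mitochondrial BCL2L13 (22.6 and 20.2 FPKM) differed little. BCL2L14 (1.204 and 0.738 FPKM) and BCL2L15 (0.0223 and 0.0409 FPKM) were under the filter.

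Downstream of the mitochondria, the caspases leaned toward HuES53. Of 7 caspase genes, 6 were higher in HuES53, with a median difference of 0.25. None reached 1.5-fold, where 17.1% of all tested genes did. CASP6 stood at 21.0 and 17.6 FPKM. CASP8, the initiator of the death receptor arm, stood at 5.30 and 4.17 FPKM, and CASP9, the initiator that the apoptosome activates, was the exception at 12.7 and 15.4. Without the GC and length trend the caspase median was 0.15. The 9 genes of the apoptosome and of mitochondrial release had a median of -0.04, with 4 higher in HuES53 and 5 in HuES64. With TPM scaling that median was 0.20, or -0.05 relative to the median of all genes. VDAC1 (189 and 181 FPKM), VDAC2 (145 and 168 FPKM) and VDAC3 (99.8 and 95.7 FPKM), channels of the outer membrane, were its highest genes. ENDOG, a mitochondrial nuclease gene of 67.7% GC that overlaps C9orf114, had 9.68 FPKM in HuES53 and 19.3 in HuES64, a difference of -0.93 that was -0.44 with the trend removed. HTRA2, a mitochondrial protease gene that overlaps AUP1 and LOXL3, stood at 9.87 and 14.6, and APAF1, the scaffold of the apoptosome, at 9.37 and 6.56.

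Of 6 inhibitor of apoptosis genes, 4 averaged at least 1 FPKM, 3 of them higher in HuES53, with a median of 0.33 that was 0.02 with the trend removed. BIRC5, which encodes survivin and also serves in mitosis, stood at 70.9 and 95.4 FPKM. BIRC2 stood at 14.5 and 11.8 FPKM, XIAP, a direct inhibitor of caspases, at 7.23 and 5.27, and BIRC6 at 5.23 and 2.997. BIRC6 was 1.56-fold higher in HuES53 and the only one of the 4 past 1.5-fold, where 17.1% of all tested genes were. With the trend removed BIRC6 no longer was (0.25, or 0.34 by longest transcripts).

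The death receptor arm leaned toward HuES64 with 1 exception at 2-fold. Of 10 genes averaging at least 1 FPKM, 8 were higher in HuES64, with a median of -0.20. TPM scaling gave -0.01, but relative to the median of all genes the arm stood at -0.26, against -0.23 before. Subtracting the trend by GC content and length left a median of -0.11, or -0.03 by longest transcripts. Relative to the median of all genes these were -0.15 and -0.07. CFLAR, which encodes the caspase-8 inhibitor FLIP, had 24.1 FPKM in HuES53 and 11.6 in HuES64, a 2.00-fold difference. It overlaps CFLAR-AS1, and its difference was 0.98 with the trend removed and 0.72 by the longest transcript. FADD, the adaptor of the receptors, stood at 29.6 and 37.1 FPKM, the TRAIL receptor gene TNFRSF10B at 28.8 and 35.2, and the decoy receptor gene TNFRSF10C at 7.44 and 9.40. TNFRSF1A, a receptor for tumour necrosis factor, stood at 24.0 and 28.3 FPKM.

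Genes that regulate the members had a median difference of 0.15 over 16 genes, with 10 higher in HuES53. With the GC and length trend removed that median was 0.07, or 0.03 by the longest transcript, beside 0.04 over all matched genes. FOXO1, of the factors that act on BCL2L11, stood at 17.96 and 11.15 FPKM, 1.56-fold higher in HuES53, a difference of 0.64 that was 0.33 with the trend removed, under 1.5-fold. FOXO3 stood at 6.30 and 4.21 FPKM. MAPK8, the kinase JNK1 that phosphorylates BH3-only proteins, stood at 18.8 and 8.88 FPKM, a difference of 1.00 that was 0.60 with the trend removed. DDIT3, a stress factor gene that overlaps MARS, stood at 7.85 and 12.1 FPKM. The 14-3-3 genes YWHAE (552 and 647 FPKM) and YWHAZ (420 and 338 FPKM) and YWHAQ (343 and 308 FPKM) were the highest of the list, each well above BAD. At 1.5-fold, 2 of the 16 were higher in HuES53 and none in HuES64, where 9.22% and 7.84% of all tested genes were. With the trend removed MAPK8 alone of these 2 was past it.

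**Figure D5:**
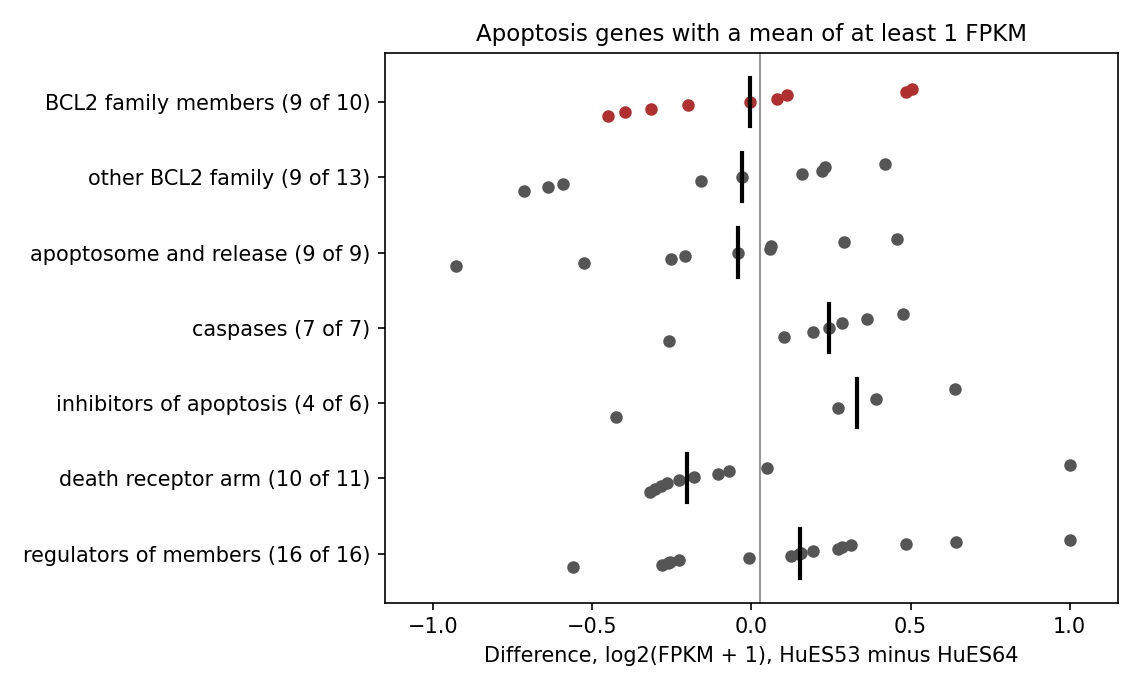
Differences (HuES53 minus HuES64 in log2(FPKM + 1)) of the members (red) and of 6 other lists of apoptosis genes (grey), with the number of genes shown of the number listed. Black bars are list medians and the grey vertical line is the median of all tested genes, 0.03. The members spread on both sides of it, between -0.45 and 0.51, and the points at the far right are CFLAR and MAPK8.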

How the data were processed

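The deposited table gives FPKM values made by the authors, 1 column per line and 25593 rows. TopHat2 2.0.4 and Cufflinks 2.0.2 appear in the submitters' processing notes, with no role given. Build, annotation and strand setting: not given in the sources used here. Rows of chromosome Y (136) were dropped and rows of 21 repeated symbols were summed. Differences are log2(FPKM + 1) in HuES53 minus HuES64 for genes averaging at least 1 FPKM. GC content and length came from GENCODE 29 transcripts, by symbol. Their trend was removed by subtracting medians over 20 bins each in 5 rounds. The step was tested on simulated data with a GC trend, no length trend and little added noise. Python 3.11.15 and pandas 2.3.3 were used.

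Depth is not given in the sources used here, and steps were fitted with an assumed fragment length of 200 bases. Low values of olfactory receptor genes fell near whole steps, 18.3 fragments per FPKM and kilobase in HuES53 (17 of 20 values whole within 3%). In HuES64 a step of 15.0 (9 of 11) and one of 29.8 (6 of 7) both served by this rule. HRK, BIRC3 and TRADD each had a plain ratio of HuES53 to HuES64 of 0.818, as equal fragment counts would give. The step of 15.0 goes with that ratio, which was not used in the fit. No counting interval was computed.

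The members and lists were chosen with earlier results of these data known. Named are all members, all measured relatives, and from each other list the 3 highest genes, the 3 with the largest difference and any at least 1.5-fold different, and of the BCL2L1 neighbours the nearest on each side, the 3 highest and any at least 1.5-fold different. FOXO3, GPR137 and the cell type markers were named outside this rule, and some genes it would name are not reported here. Alternatives were other pseudocounts (0.1 and 0.5), filters, scalings, the handling of repeated symbols, trend removal and the exclusion of overlapping loci.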

Additional observations from a re-analysis of the deposited data

How the results depend on the processing

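With 1 library of each line no paired analysis was possible because there are no replicates, and none could be left out. The count of members at least 1.5-fold different was 0 with the deposited values and 2 with TPM scaling (PMAIP1 at 0.73 and BCL2L11 at 0.75), which moved the median of all genes from 0.03 to 0.25 and the share of all tested genes past 1.5-fold from 17.1% to 26.9%. Relative to that median they stood at 0.48 and 0.50. HuES53 was the higher line for 85.6% of the 1.5-fold genes with TPM scaling and for 54.0% before. TPM turned BID to 0.026 and the medians of the other family genes to 0.20 and of the apoptosome list to 0.20. It moved the caspases to 0.49, the inhibitors of apoptosis to 0.57, the death receptor arm to -0.0092, the regulators to 0.40 and the BCL2L1 neighbours to -0.073. BAK1, level before, stood at 0.24. Relative to the median of all genes, BAK1 was then -0.016, BID -0.23 and the death receptor arm -0.26. The other family genes were then -0.055, the apoptosome list -0.054 and the neighbours -0.33. On the same footing the caspases were 0.23, the inhibitors 0.32 and the regulators 0.15. Removing the GC and length trend turned MCL1 to -0.19, BBC3 to 0.044, BAK1 to 0.15 and BAD to 0.00, and moved the inhibitors to 0.025 and the neighbours to -0.16. By the longest transcript, an alternative chosen after seeing the data, MCL1 was -0.095, BBC3 0.16, BAD 0.22, BAK1 0.22, the apoptosome list 0.021, the inhibitors -0.0076 and the death receptor arm -0.028. A mean of at least 5 FPKM gave 0.065 for the other family genes and -0.045 for the neighbours, whose median was 0.00 with no filter. Without overlapping loci the other family genes were at 0.19 and the apoptosome list at 0.0089. TPM scaling multiplies all values of a library by the same factor, so it shifts all but low genes nearly alike. The cause of the shifts under the other settings was not tested. A value counts as moved past 1 SD of the differences over all genes (0.56), divided for a list by the square root of its size. BCL2 had no value with the trend removed, and BBC3, BID and BAD none without overlapping loci.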

Other observations

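The ratio of any pair of members within a library is free of the scaling of that library, and was compared between the lines for all 36 pairs of the 9 members averaging at least 1 FPKM. It changed by at least 1.5-fold for 8 pairs (22.2%) and by at least 2-fold for 1, against 42.4% and 19.1% of all pairs of the 13736 tested genes above 0 in both lines. These shares are not matched for level. BID, the lowest of the 9 members, averaged 9.62 FPKM, while the tested genes reach down to 1 FPKM. The pair past 2-fold was BAX and BCL2L11: BAX stood at 26.8 times BCL2L11 in HuES53 and at 54.0 times in HuES64, a 2.01-fold change. The change was 1.56-fold without the GC and length trend, taken on the log2(FPKM + 1) scale. All 8 pairs joined PMAIP1 or BCL2L11 to BAX, BAD, BBC3 or BID. With the trend removed, on the log2(FPKM + 1) scale and not from plain ratios, 5 pairs were past 1.5-fold, 3 of the 8 and 2 others. Of all pairs of the 11916 matched genes, 24.1% were. The added 1 and the other set of genes therefore also enter the step from 42.4% to 24.1%. By the longest transcript none of the 36 pairs was past 1.5-fold. The ratio of MCL1 to BCL2L1 was among those that changed least, by 1.02-fold, yet by 1.48-fold with the trend removed. These pairs were described after their values were seen.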
